A study of Mus musculus with 4 samples.

Results

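The mitosis genes described here are 40 genes that act when a dividing cell condenses, attaches, separates and partitions its chromosomes. They were listed by gene name, with earlier results of these data known, and are 40 of the 31053 genes in the deposited matrices. All 40 were detected and all passed the filter on low counts in both tested comparisons. By role they comprise 5 cyclin and CDK1 genes, 5 mitotic kinases, 4 members of the chromosomal passenger complex, 6 centromere and kinetochore genes, 6 spindle motors and microtubule factors, 5 genes of the central spindle and cytokinesis, 5 chromosome structure genes, and 4 genes of the anaphase-promoting complex and separase.

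Entry into mitosis is driven by cyclin B bound to CDK1, with polo-like and Aurora kinases acting beside it. The spindle checkpoint, which includes Bub1, Bub1b and Ttk, holds the anaphase-promoting complex back until all chromosomes are attached. Once Cdc20 activates that complex, cyclins and securin are degraded and separase opens the chromatids. The transcripts of these genes are kept low in resting cells by the MuvB complex with the pocket proteins p107 and p130, and are raised late in the cycle by MuvB with B-Myb and FoxM1.

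The data were single-cell transcriptomes of donor T cells from the spleens of mice with graft-versus-host disease. Lethally irradiated BALB/c recipients (900 cGy) received T cell-depleted bone marrow of the C57BL/6 strain, positive for both CD45.1 and CD45.2, together with Foxp3-GFP+ CD25hi regulatory T (Treg) cells from CD45.2+ C57BL/6 donors, and 2 days later CD4+ and CD8+ conventional T cells from wild-type CD45.1+ C57BL/6 mice. The Treg cells alone differed in genotype, which was CD226+/+ TIGIT+/+ (WT), CD226-/- TIGIT+/+ (CD226KO), CD226+/+ TIGIT-/- (TIGITKO) or CD226-/- TIGIT-/- (DKO). Each genotype gave 1 library, a pool of 3, of H-2Kb+ TCRb+ cells sorted 8 days after induction and stained with barcoded CD45.1 and CD45.2 antibodies. All conventional cells were wild type. Between libraries they differed in the Treg cells they had been transferred with and in the pool they came from. In the TIGIT-sufficient libraries the labels give lane 3 and in both TIGIT-deficient libraries lane 4, so TIGIT status and lane cannot be told apart. Values of the 4 libraries are given in the order WT, CD226KO, TIGITKO and DKO throughout.

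Cells were assigned by their antibody counts. Those with mostly CD45.2 were called Treg-origin (367, 332, 462 and 376 cells), and those with mostly CD45.1 were divided by their Cd4 and Cd8 UMIs into conventional CD4 (2750, 3098, 3100 and 2813 cells) and conventional CD8 (2098, 2600, 2902 and 3415 cells). Median depth per cell was 3922 to 5372 UMIs in Treg-origin, 7040 to 9013 in CD4 and 8887 to 11901 in CD8 cells. The summed level of the Treg markers Foxp3, Ikzf2, Il2ra and Ctla4 was 887 to 914 CPM (UMIs of a gene or list per 1000000 UMIs of the class) in Treg-origin cells and 139 to 173 CPM in CD4 cells. All 6 T cell markers were detected in each class. Cd226 was at 31.2, 4.01, 32.5 and 4.39 CPM in Treg-origin cells, low in both libraries labelled CD226-deficient. Tigit was at 9.11, 5.15, 8.60 and 5.86 CPM and was not lower in both libraries labelled TIGIT-deficient than in both TIGIT-sufficient ones, so these 3′ UMIs do not check that label. Whether they lie outside the deleted part was not given in the sources used here. Pairs of libraries shared 23 to 36 cell barcodes. Neutrophil markers summed to 1795, 4.58, 1671 and 3.90 CPM in Treg-origin cells, with 0, 3, 0 and 2 of the 5 genes at 0. Erythroid markers summed to 47.7, 1004, 18.6 and 38.6 CPM, with at most 1 of 6 genes at 0. B and plasma cell markers summed to 19.95, 264, 23.9 and 11.2 CPM, with 1 to 4 of 6 genes at 0. The markers of the other lineages (macrophage and monocyte, NK and progenitor) each summed to between 0 and 145 CPM there.

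The control regions of these genes are shown because the letters that the MuvB and NF-Y complexes are known to bind recur in them. RefSeq windows on GRCm38.p6, from 250 bases before to 50 bases after the annotated start, were at hand for 34 of the 40 genes, in 36 windows. The cell cycle genes homology region was searched as TTTGAA or TTTAAA and the NF-Y box as CCAAT, on both strands, with overlapping matches counted. The first was found in 33 of the 36 windows (91.7%), covering 31 genes, and in 27.6% of all 32851 windows in the table. The NF-Y box was found in 30 windows (83.3%) against 37.4% of all, and both motifs together in 29 windows (80.6%) against 10.7%. A repeated NF-Y box was found in 21 windows (58.3%) against 11.7%. Neither motif was in the windows of Knstrn and Nusap1. These are matches of letters and were not tested. The windows of 5 genes are printed 5′ to 3′ on the strand of the gene, with matches to either motif in capitals. They are chr9:70421505-70421804 for cyclin B2 (minus strand), chr2:164769679-164769978 for the ubiquitin-conjugating enzyme of the anaphase-promoting complex (plus strand), chr11:99024140-99024439 for topoisomerase II alpha (minus strand), chr5:30666636-30666935 for the centromeric histone (plus strand) and chr2:118813753-118814052 for the kinetochore protein kinastrin (plus strand).
Ccnb2: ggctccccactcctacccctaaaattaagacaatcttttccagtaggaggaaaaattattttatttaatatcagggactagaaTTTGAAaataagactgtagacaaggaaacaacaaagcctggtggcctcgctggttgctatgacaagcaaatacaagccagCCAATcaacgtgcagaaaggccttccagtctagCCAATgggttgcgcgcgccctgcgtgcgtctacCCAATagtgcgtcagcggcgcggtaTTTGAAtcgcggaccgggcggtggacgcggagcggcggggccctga
Ube2c: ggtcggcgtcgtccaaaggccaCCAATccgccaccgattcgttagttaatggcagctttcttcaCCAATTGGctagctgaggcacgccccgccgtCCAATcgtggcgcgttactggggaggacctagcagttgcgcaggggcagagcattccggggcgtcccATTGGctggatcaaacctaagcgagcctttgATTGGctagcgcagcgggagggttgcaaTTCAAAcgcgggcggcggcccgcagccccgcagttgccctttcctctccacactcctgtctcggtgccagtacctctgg
Top2a: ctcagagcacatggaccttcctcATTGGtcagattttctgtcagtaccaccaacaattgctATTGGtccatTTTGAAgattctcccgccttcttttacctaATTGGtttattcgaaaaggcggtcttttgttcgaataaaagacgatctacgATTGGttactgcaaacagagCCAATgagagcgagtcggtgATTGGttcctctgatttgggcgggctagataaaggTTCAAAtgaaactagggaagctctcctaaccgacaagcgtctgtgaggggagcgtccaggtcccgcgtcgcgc
Cenpa: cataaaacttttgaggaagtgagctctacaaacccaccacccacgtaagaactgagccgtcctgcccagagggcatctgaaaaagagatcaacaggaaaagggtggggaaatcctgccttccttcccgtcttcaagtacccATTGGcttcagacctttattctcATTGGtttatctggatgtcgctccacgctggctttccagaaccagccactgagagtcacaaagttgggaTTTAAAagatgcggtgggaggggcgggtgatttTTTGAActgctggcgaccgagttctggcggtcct
Knstrn: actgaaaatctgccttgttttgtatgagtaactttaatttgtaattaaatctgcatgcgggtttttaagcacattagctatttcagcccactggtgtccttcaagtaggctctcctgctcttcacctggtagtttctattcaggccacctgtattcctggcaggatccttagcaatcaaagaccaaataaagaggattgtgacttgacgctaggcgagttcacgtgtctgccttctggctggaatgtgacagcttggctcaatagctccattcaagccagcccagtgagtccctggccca
Ccnb2 held 3 NF-Y boxes, starting 87, 54 and 21 bases before the start, and 2 homology regions, which began 167 bases before the start and at base 5 after it. Ube2c and Top2a held 6 NF-Y boxes each. Ube2c held 1 homology region, 29 bases before the start, and Top2a held 2, at 179 and 23 bases before it. Cenpa held 2 of each motif.

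The genes were lower in Treg-origin cells than in conventional CD4 cells in every library. Together they took 4137, 3381, 4781 and 4283 CPM in Treg-origin cells and 6468, 6226, 6475 and 6065 CPM in CD4 cells. Every Treg-origin value lay below every CD4 value. The ratio within a library was 0.640 [0.627, 0.653], 0.543 [0.529, 0.557], 0.738 [0.724, 0.754] and 0.706 [0.691, 0.722], with exact 95% binomial intervals that cover counting error only. CD8 cells were at 6506, 6766, 6751 and 6486 CPM. Their ratio to the CD4 cells of the same library was 1.01 [0.999, 1.01], 1.09 [1.08, 1.09], 1.04 [1.04, 1.05] and 1.07 [1.06, 1.08], and the WT interval held 1. In WT, CD8 cells were below CD4 cells with the strict cell filter (6619.5 against 6810.5 CPM) and strict class cuts (6899.5 against 7194 CPM). They were also below with other-lineage cells left out (6333 against 6402 CPM). In CD226KO, TIGITKO and DKO they stayed above with each of these settings. In the smaller Treg-origin class, the 5 cells with the most of these UMIs held 12.6%, 16.0%, 7.78% and 12.7% of them.

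**Figure D1:**
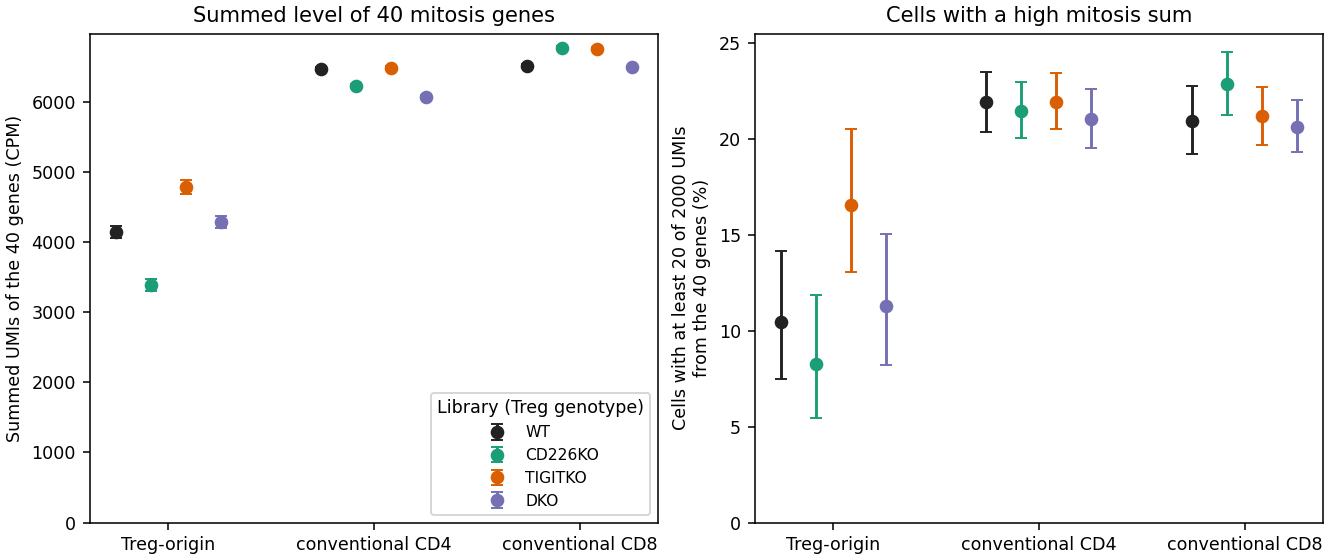
Left, summed UMIs of the 40 mitosis genes in CPM for 3 cell classes (x axis), 1 point per library with its exact 95% Poisson interval. Right, the percentage of cells with at least 20 of 2000 UMIs from these genes, with exact 95% binomial intervals. All 4 Treg-origin points lie below the conventional ones in both panels, and among them the TIGITKO library is the highest in each. With stricter antibody cuts, not drawn, TIGITKO was not the highest. Treg-origin sums were then 5299.5, 5122, 4568 and 4515 CPM, and high shares 16.3%, 15.5%, 13.3% and 12.5%.

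In the test across all genes, 40 of 40 mitosis genes fell in Treg-origin against conventional CD4 cells and 0 rose. The test was edgeR's quasi-likelihood test on UMIs summed per class and library, with library as a block and Benjamini-Hochberg adjustment over 11322 genes, and called genes at an adjusted p of at most 0.05. Of all genes tested, 20.8% were called lower and 20.2% higher. DESeq2 also called 0 higher, and no gene of the 40 was higher at an unadjusted p under 0.05, since all 40 were lower at that level. The median log2 fold change was -0.65, against 0.01 over all genes tested. The same comparison called 67 of 72 other mitotic genes lower and 2 higher, and 20 of 20 S phase genes lower with a median of -0.68. With library as a block, the p-values measure how the class difference within a library varies over the 4 libraries, which also differ in Treg genotype. After each cell was thinned to 2000 UMIs, 38 of the 40 were called lower and the median was -0.82, and without cells that held more than 2 UMIs of other-lineage markers 40 were lower with a median of -0.66.

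**Figure D2:**
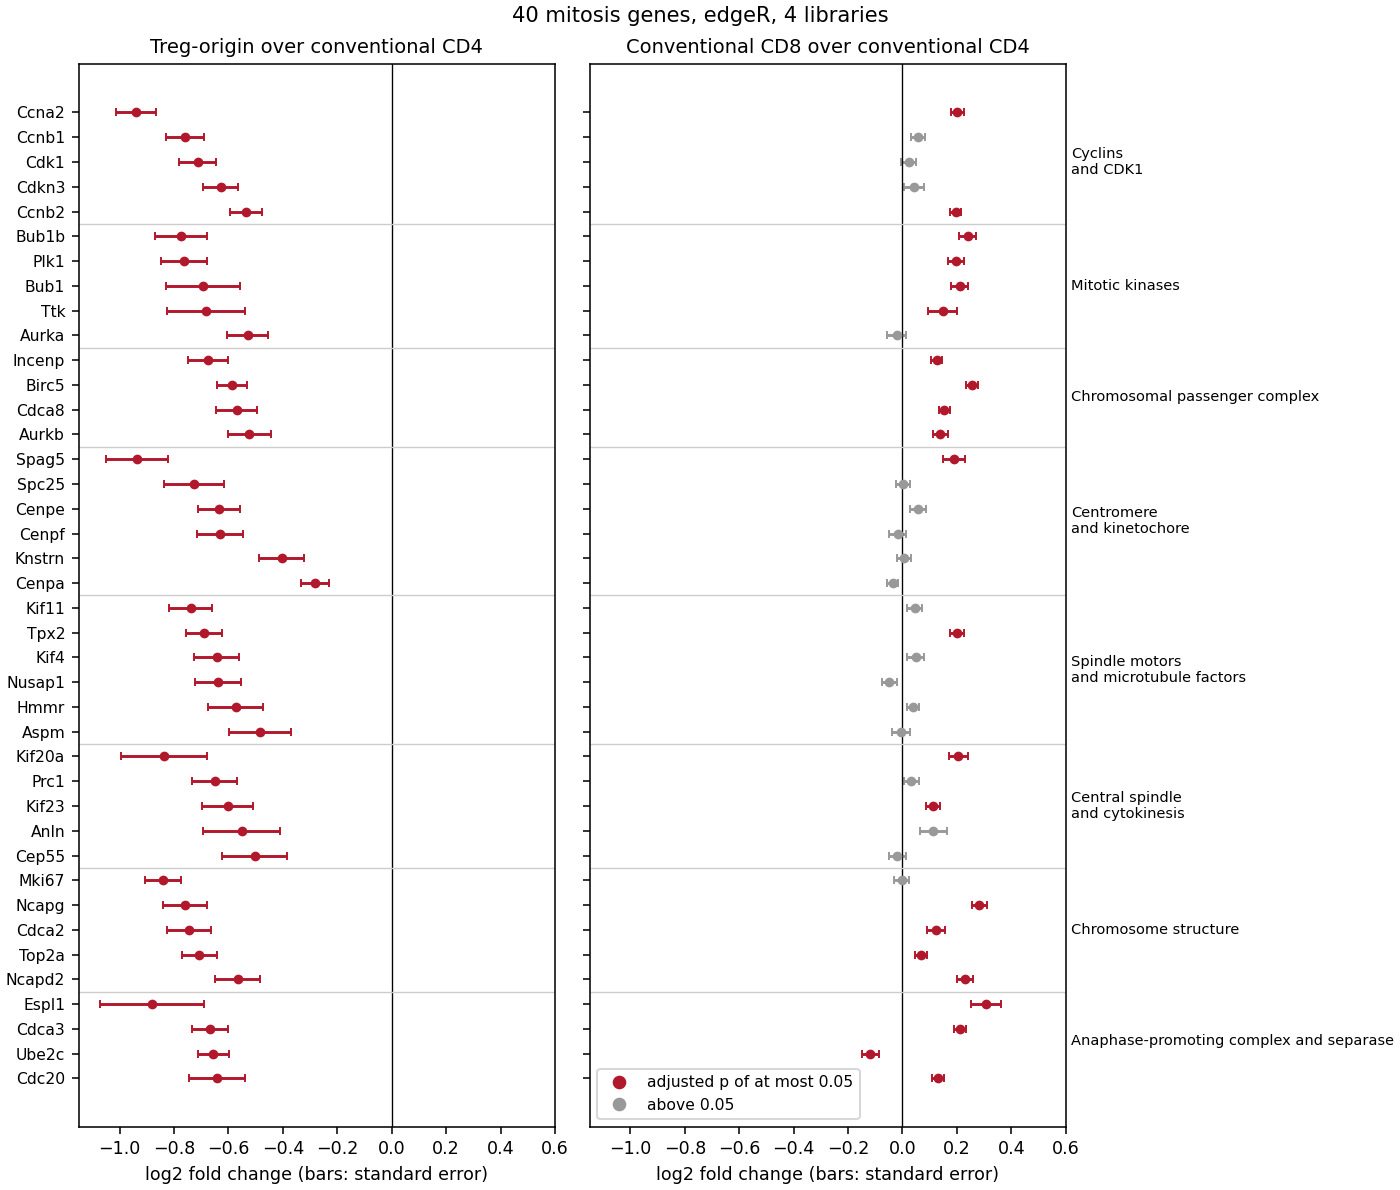
Log2 fold change (x axis) of each of the 40 genes, grouped by role, in Treg-origin over conventional CD4 cells (left) and conventional CD8 over conventional CD4 cells (right), with the standard error as a bar. Red points have an adjusted p of at most 0.05: all 40 lie left of 0 on the left, from -0.94 to -0.28, while on the right 21 lie above 0 and Ube2c lies below it.

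Among the cyclins, Ccna2, which encodes the cyclin A of S phase and early mitosis, had the lowest fold of all 40. It was at 122, 89.3, 129 and 102.5 CPM in Treg-origin cells and at 214, 210, 219 and 189 CPM in CD4 cells. The classes did not overlap, and the log2 fold was -0.94 (SE 0.07, adjusted p = 2.91e-07 by edgeR). Cdk1, the kinase that the mitotic cyclins activate, was at 157, 120, 177 and 144 CPM against 251, 231, 245 and 229 CPM, a log2 fold of -0.71 (SE 0.07). Ccnb2, which encodes cyclin B2 and whose window is printed above, was at 173, 164, 190 and 187 CPM against 265, 256, 256 and 239 CPM. Its log2 fold of -0.54 (SE 0.06) was the smallest drop in its group, and again the classes did not overlap. All 5 genes of the group fell, Ccnb1 and the CDK-associated phosphatase gene Cdkn3 among them.

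All 5 mitotic kinases fell. Plk1, the polo-like kinase of spindle assembly and mitotic exit, was at 55.1, 37.8, 58.7 and 46.8 CPM in Treg-origin and at 88.5, 84.4, 87.5 and 71.7 CPM in CD4 cells, a log2 fold of -0.76 (SE 0.09). Bub1b, the checkpoint kinase-like protein BubR1, was at 35.6, 27.5, 47.3 and 36.1 CPM against 59.9, 65.0, 63.7 and 59.1 CPM, a log2 fold of -0.78 (SE 0.10). In both genes the CD226KO library had the lowest Treg-origin value and the TIGITKO library the highest. The group median was -0.69.

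The 4 genes of the chromosomal passenger complex, which corrects faulty attachments and then moves to the midzone, fell by similar amounts, with log2 folds from -0.68 to -0.52. Birc5, which encodes survivin, was at 389, 322, 407 and 395 CPM in Treg-origin and at 569, 557, 579 and 523 CPM in CD4 cells (log2 fold -0.59, SE 0.05, adjusted p = 1.42e-06 by edgeR). Cdca8, the borealin gene, was at 208, 152, 229 and 175 CPM against 276, 274, 285 and 269 CPM (log2 fold -0.57, SE 0.08).

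The centromere and kinetochore genes held the smallest drop of the 40 and, after Ccna2, the next largest. Spag5, which encodes the spindle protein astrin, was at 16.9, 12.6, 12.9 and 13.7 CPM in Treg-origin and at 28.5, 25.2, 27.5 and 24.5 CPM in CD4 cells, a log2 fold of -0.94 (SE 0.11). Cenpa, the histone H3 variant that marks the centromere, was at 348, 303, 367 and 395 CPM against 424, 410, 412 and 434 CPM. Its log2 fold of -0.28 (SE 0.05, adjusted p = 0.000634 by edgeR) was the smallest drop of the 40, yet the classes did not overlap. Knstrn, which encodes kinastrin, the partner of astrin, followed it at -0.40 (SE 0.08), with 57.8 to 82.6 CPM against 88.9 to 96.4 CPM. Cenpf, a large protein of the outer kinetochore, was at 119, 106, 173 and 127 CPM against 199, 196, 202 and 195 CPM, and its log2 fold was -0.63 (SE 0.08).

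All 6 spindle motors and microtubule factors fell. Tpx2, the activator of Aurora A on spindle microtubules, was at 81.1, 80.7, 105 and 85.9 CPM in Treg-origin and at 140, 140, 148 and 129 CPM in CD4 cells (log2 fold -0.69, SE 0.07). Nusap1, which bundles microtubules near chromosomes, was at 105, 74.4, 107 and 85.4 CPM against 146, 143, 138 and 140 CPM (log2 fold -0.64, SE 0.08). Aspm, a spindle pole protein, had the third smallest drop of the 40, at -0.48 (SE 0.11, adjusted p = 0.00369 by edgeR). Its levels were 29.5, 20.6, 33.4 and 40.5 CPM against 45.3, 42.3, 40.8 and 42.7 CPM, so the DKO value came close to the lowest CD4 value.

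In the central spindle and cytokinesis group, where all 5 fell, Prc1 crosslinks the antiparallel microtubules of the midzone. It was at 100, 83.5, 129 and 115 CPM in Treg-origin and at 168, 161, 161 and 164 CPM in CD4 cells (log2 fold -0.65, SE 0.08). Kif23, the motor of the centralspindlin complex, was at 40.3, 37.2, 51.6 and 60.0 CPM against 72.1, 68.7, 71.7 and 68.8 CPM (log2 fold -0.60, SE 0.09). Anln, which encodes the cleavage furrow protein anillin, had the highest adjusted p of the 40, at 0.00679 by edgeR, and was called lower.

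All 5 chromosome structure genes fell, with a group median of -0.75. Mki67, which encodes the Ki-67 protein coating mitotic chromosomes, was at 281, 209, 326 and 296 CPM in Treg-origin and at 498, 457, 518 and 465 CPM in CD4 cells. Its log2 fold was -0.84 (SE 0.07, adjusted p = 2.71e-07 by edgeR). Top2a, the topoisomerase that untangles sister chromatids, was at 304, 252, 380 and 325 CPM against 501, 493, 527 and 486 CPM (log2 fold -0.71, SE 0.06). In both genes every Treg-origin value was well below every CD4 value.

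All 4 genes grouped with the anaphase-promoting complex and separase fell. Ube2c was at 397, 323, 444 and 382 CPM in Treg-origin and at 630, 590, 599 and 562 CPM in CD4 cells (log2 fold -0.66, SE 0.06). Cdca3, a gene of the entry into mitosis that is itself removed by the anaphase-promoting complex, was at 118, 117, 126 and 143 CPM against 203, 196, 194 and 192 CPM (log2 fold -0.67, SE 0.07). Espl1, which encodes separase, was the least precise of the named genes. It was at 10.8, 4.01, 12.4 and 6.83 CPM against 16.8, 14.7, 16.4 and 14.3 CPM, and its log2 fold of -0.88 (SE 0.19, adjusted p = 0.00212 by edgeR) was not called with stricter class cuts or thinned cells.

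At equal depth, fewer Treg-origin than conventional cells held many of these transcripts. Each cell with at least 2000 UMIs was thinned to 2000, which left out 14, 17, 57 and 22 Treg-origin cells, at most 27 CD4 cells and at most 23 CD8 cells per library. A high sum was at least 20 of 2000 UMIs from the 40 genes. It was found in 10.5% [7.49, 14.2], 8.25% [5.46, 11.9], 16.5% [13.1, 20.5] and 11.3% [8.20, 15.1] of Treg-origin cells and in 21.9%, 21.5%, 21.97% and 21.1% of CD4 cells. The mean difference over libraries was -9.96 percentage points (SD 3.34, n = 4), lower in 4 of 4 libraries, with a two-sided exact permutation p of 0.13, the smallest that 4 pairs allow. Without thinning, taking 1% of the UMIs of the cell as high, the shares were 9.81%, 9.04%, 14.3% and 10.9% of Treg-origin and 22.4%, 20.9%, 21.4% and 20.5% of CD4 cells. Stricter antibody cuts, with thinning, gave 16.3%, 15.5%, 13.3% and 12.5% of Treg-origin and 27.5%, 27.6%, 25.6% and 24.2% of CD4 cells. The order of the Treg-origin libraries thus rested on the class cuts. Cells within 2 UMIs of the cut numbered 9 to 14 in Treg-origin, 179 to 246 in CD4 and 204 to 328 in CD8 cells. The mean sum within high cells was 28.9, 29.3, 29.3 and 31.2 of 2000 UMIs in Treg-origin cells, 29.1, 29.1, 28.9 and 29.2 in CD4 cells and 26.9, 26.8, 26.4 and 27.0 in CD8 cells. At the other end, 2 or fewer of 2000 UMIs were found in 61.6% ± 5.0 (SD, n = 4) of Treg-origin, 34.3% ± 2.9 of CD4 and 14.2% ± 2.1 of CD8 cells. The part of such low sums that comes from free RNA was not tested.

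The shares of high cells in conventional CD8 and CD4 cells differed by less than the spread between libraries. The split of the cells below the cut into low and intermediate sums differed by more. High sums were found in 21.0%, 22.9%, 21.2% and 20.7% of CD8 cells, a mean difference from CD4 of -0.18 percentage points (SD 1.08, n = 4, two-sided exact permutation p = 0.875). Intermediate sums, over 2 and under 20 of 2000 UMIs, were found in 66.6%, 60.6%, 66.2% and 64.0% of CD8 and in 45.9%, 41.3%, 46.6% and 42.7% of CD4 cells. That difference of 20.2 points (SD 0.97, n = 4) was positive in 4 of 4 libraries, with an exact permutation p of 0.13, the smallest possible. The median cell held 10, 10, 11 and 10 of 2000 UMIs in CD8, 7, 6, 8 and 6 in CD4 and 1, 1, 2 and 1 in Treg-origin cells. The cut set the direction. At 10 of 2000 UMIs the CD8 share was on average 11.9 points above that of CD4, and at 40 of 2000 it was 0.814%, 0.696%, 0.556% and 0.825% of CD8 against 1.83%, 1.75%, 2.12% and 2.001% of CD4 cells, lower in 4 of 4 libraries.

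**Figure D3:**
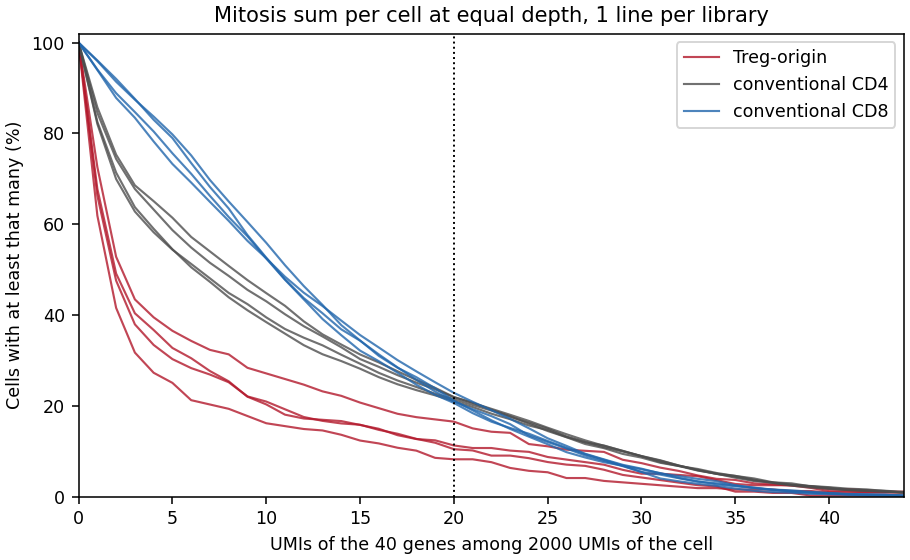
The percentage of cells (y axis) with at least a given number of UMIs of the 40 genes among 2000 UMIs of the cell (x axis), 1 line per library, with the cut at 20 dotted. Treg-origin lines drop to between 31.7% and 43.5% at 3 UMIs, CD8 lines stay above CD4 lines up to about the cut, and there CD4 and CD8 lines meet at 20.7% to 22.9%.

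By gene, 21 of the 40 were called higher in conventional CD8 than CD4 cells, 1 was called lower and 18 were not called, with a median log2 fold of 0.11. Over 11854 genes tested, 22.0% were called higher and 23.9% lower. The differences were small. The largest was Espl1 at 0.31 (SE 0.05, adjusted p = 0.000673 by edgeR), at 19.2, 19.7, 19.97 and 17.6 CPM in CD8 cells, each above the CD4 values given above. Ncapg, a subunit of condensin I, was at 83.0, 85.9, 83.7 and 83.4 CPM in CD8 and at 69.9, 68.0, 71.0 and 68.9 CPM in CD4 cells, and rose by 0.28 (SE 0.03). Birc5 was at 663, 666, 661 and 652 CPM in CD8 cells and rose by 0.25 (SE 0.02). All 4 chromosomal passenger genes and 4 of 5 mitotic kinases rose, against 1 of 6 centromere and kinetochore genes (Spag5) and 1 of 6 spindle genes (Tpx2). Whether the role groups differed was not tested. Ccnb2 rose by 0.20 (SE 0.02) at 299, 296, 284 and 277 CPM in CD8 cells, and Ccna2 by 0.20 (SE 0.02).

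Ube2c alone was lower in CD8 cells. It was at 525, 589, 553 and 512 CPM there and at 630, 590, 599 and 562 CPM in CD4 cells, a log2 fold of -0.12 (SE 0.03, adjusted p = 0.00927 by edgeR), and the classes overlapped. Nusap1 at -0.05 (SE 0.03, adjusted p = 0.171 by edgeR) and Cenpa at -0.04 (SE 0.02, adjusted p = 0.175) followed and were not called. Mki67 was at 453, 472, 525 and 471 CPM in CD8 cells, within the range of the CD4 values but for 2 libraries, and was not called (adjusted p = 0.931 by edgeR). With every cell thinned to 2000 UMIs, which also weights cells equally and leaves out shallower ones, 34 genes were called higher and 0 lower, and the median was 0.23, while DESeq2 gave 19 higher and 0 lower.

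The other mitotic genes went the same way as the 40, with 42 of 72 called higher in CD8 than CD4 cells and 2 lower. Of all genes tested there, 22.0% were called higher and 23.9% lower. The 2 lower genes were Psrc1 at -0.58 (SE 0.11) and the phosphatase gene Cdc25b at -0.12 (SE 0.03). Psrc1, a microtubule-associated protein, was also 1 of the 2 other mitotic genes higher in Treg-origin than CD4 cells, at 0.57 (SE 0.20, adjusted p = 0.0386 by edgeR), with securin (Pttg1) at 0.19 (SE 0.06). In that comparison 20.2% of all genes tested were called higher. Of the S phase genes 19 of 20 were higher in CD8 cells, with a median of 0.28, and Tyms was lower at -0.06 (SE 0.02).

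Members differed in how strictly they were confined to cells rich in the rest of the set. For each gene, cells in which the other genes of the set made up at least 1% of UMIs were taken, and the share of the UMIs of that gene found there was computed. In CD4 cells this share was 70.8% ± 4.0 (SD over 4 libraries) for Cenpf, 67.9% ± 2.6 for Aspm, 66.6% ± 2.3 for Nusap1 and 65.2% ± 3.4 for the kinase gene Aurka. It was 40.3% ± 2.2 for Ccnb2, 43.3% ± 2.7 for Cenpa and 43.7% ± 3.1 for Birc5. Those cells held 21.5% to 26.0% of all UMIs of the class on average over libraries, depending on the gene left out. In Treg-origin cells Cenpf was again first, at 71.8% ± 11.0, and Ccnb2 last, at 37.8% ± 8.0. In CD8 cells Cenpf was first at 53.0% ± 4.9 and Ccnb2 last at 27.9% ± 3.1. In CD4 cells where the other genes made up at most 0.1% of UMIs, Cenpf was at 3.21 CPM on average, Ccnb2 at 35.5 CPM and Cenpa at 68.7 CPM. Cells with a high sum were deeper, with a median of 8709 to 11550 UMIs in CD4 cells against 6487 to 8298 in the rest, and the part of depth in these shares was not tested.

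The known regulators of these promoters were measured from a list of 20 genes. In Treg-origin against CD4 cells 12 were called lower, 1 higher and 7 were not called, where 20.8% of all genes were called lower and 20.2% higher. Mybl2, which encodes B-Myb, was at 15.6, 10.9, 18.6 and 13.7 CPM in Treg-origin and at 27.0, 24.9, 26.8 and 22.8 CPM in CD4 cells (log2 fold -0.81, SE 0.12). Foxm1 was at 15.2, 14.3, 19.1 and 12.2 CPM against 23.4, 20.7, 20.7 and 20.4 CPM (log2 fold -0.52, SE 0.13). The gene called higher was Rbl2, which encodes the repressor p130. It was at 45.97, 48.1, 52.1 and 48.8 CPM against 20.8, 22.3, 18.5 and 20.4 CPM, a log2 fold of 1.23 (SE 0.09, adjusted p = 9.22e-08 by edgeR), and in each library the Treg-origin value was above every CD4 value. In CD8 against CD4 cells 11 regulators rose and 1 fell, against 22.0% and 23.9% of all genes. Mybl2 rose by 0.37 (SE 0.04), and the gene that fell was Rb1 at -0.24 (SE 0.06).

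The CDK inhibitors restrain the kinases that start the cycle. In Treg-origin against CD4 cells 1 of 7 rose, 0 fell and 6 were not called, where 20.2% of all genes tested were called higher and 20.8% lower. Cdkn1b, which encodes p27, was at 83.7, 91.6, 74.5 and 98.1 CPM against 48.5, 48.1, 48.2 and 52.0 CPM, a log2 fold of 0.79 (SE 0.06, adjusted p = 3.26e-07 by edgeR). In CD8 against CD4 cells 7 of 7 fell, against 23.9% of all genes. Cdkn1a, which encodes p21, was at 20.8, 19.1, 21.3 and 18.7 CPM in CD8 and at 52.0, 42.4, 47.8 and 53.3 CPM in CD4 cells, a log2 fold of -1.29 (SE 0.05, adjusted p = 3.88e-09 by edgeR). Cdkn2b fell by 1.53 (SE 0.17), Cdkn2a by 0.88 (SE 0.09), Cdkn1c by 0.76 (SE 0.18), Cdkn2c by 0.48 (SE 0.04), Cdkn1b by 0.37 (SE 0.05) and Cdkn2d by 0.12 (SE 0.03) on the log2 scale.

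Within each class, the inhibitors did not all go one way in the cells with a high mitosis sum. Cells with at least 20 of 2000 UMIs from the set were set against cells with 2 or fewer, and their full UMIs summed. In CD4 cells Cdkn2c, which encodes p18, was at 159, 140, 125 and 146 CPM in high cells and at 12.6, 13.2, 15.0 and 14.0 CPM in low cells. Cdkn2d, which encodes p19 of the INK4 family, was at 437, 407, 413 and 390 CPM against 90.4, 99.0, 97.8 and 79.9 CPM. Both were higher in the high cells of all 3 classes in all 4 libraries. Of the 7 inhibitors, 4 were higher and 3 lower in high CD4 cells of all 4 libraries, with Cdkn1b and Cdkn1c the other higher ones and Cdkn1a, Cdkn2a and Cdkn2b the lower ones. In Treg-origin cells 2 were higher and 2 lower in all 4 libraries, and in CD8 cells 3 were higher and 0 lower. In CD4 cells Cdkn1a was at 37.9, 31.8, 39.2 and 34.3 CPM against 65.2, 45.9, 47.9 and 66.7 CPM. Foxm1 was at 43.8, 40.5, 39.1 and 40.3 CPM in high CD4 cells against 1.87, 2.28, 2.62 and 2.58 CPM in low ones, and Rbl2 was at 21.5, 19.8, 18.7 and 18.9 CPM against 25.6, 27.1, 21.1 and 23.7 CPM. Of the 20 regulators, 16 were higher and 3 lower in high CD4 cells of all 4 libraries. These comparisons describe cells chosen by their mitosis sum and carry no test. The share of all genes higher or lower in high cells of all 4 libraries was not computed. The counts of inhibitors and regulators therefore cannot be set against it.

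**Figure D4:**
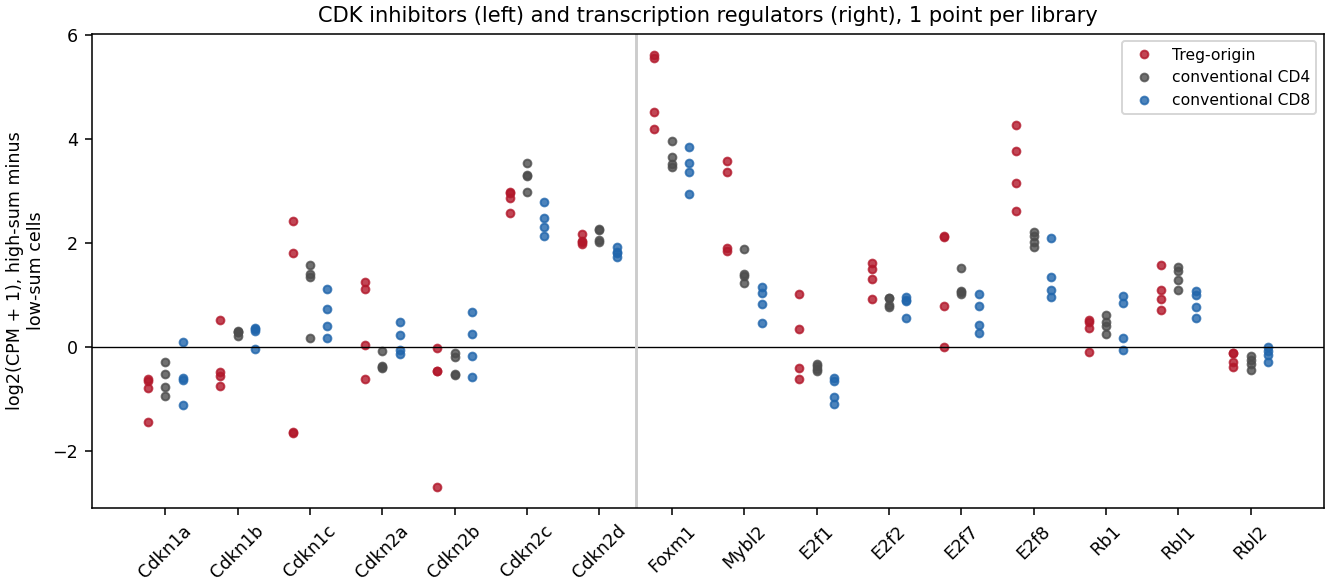
Difference in log2(CPM + 1) between cells with at least 20 and cells with at most 2 of 2000 UMIs from the 40 genes (y axis), for 7 CDK inhibitors and 9 transcription regulators (x axis), coloured by class, 1 point per library. Cdkn2c and Cdkn2d lie between 1.74 and 3.55 in every class, Foxm1 between 2.94 and 5.62, and Rbl2 and Cdkn1a mostly below 0.

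Treg genotype was compared only by counting, since each genotype had 1 library, and no test between genotypes was made. In Treg-origin cells the summed level was lower without CD226, at 0.817 [0.791, 0.844] of the reference with TIGIT present (CD226KO over WT) and 0.896 [0.870, 0.922] with TIGIT absent (DKO over TIGITKO). It was higher in the libraries labelled TIGIT-deficient, at 1.16 [1.12, 1.19] times with CD226 present (TIGITKO over WT) and 1.27 [1.23, 1.31] times with CD226 absent (DKO over CD226KO). DKO over WT was 1.04 [1.01, 1.07]. These directions rested on where the class was cut. With stricter antibody cuts, which kept 147, 106, 165 and 180 Treg-origin cells, the TIGIT contrasts turned to 0.862 and 0.882 and the CD226 contrasts moved to 0.967 and 0.988. The 4 CD226 and TIGIT contrasts share libraries.

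Counted by gene, with a limit of 25% higher, or lower by the same factor, on log2(CPM + 1), CD226 loss with TIGIT present put 18 of the 40 lower and 1 higher, where 14.9% of 8435 genes were lower and 13.8% higher. With TIGIT absent it put 8 lower and 1 higher, against 14.3% lower and 14.3% higher among all genes. TIGIT loss with CD226 present put 12 higher and 1 lower, against 14.0% higher and 11.9% lower. With CD226 absent it put 23 higher and 0 lower, against 16.9% higher and 12.7% lower. No test was made of these counts. Without the fold limit 37 of the 40 were higher under both TIGIT contrasts and 30 were lower under both CD226 contrasts. The share of all genes with such a shared direction was not computed. In these 4 contrasts the median log2 difference of the 40 was -0.30, -0.20, 0.18 and 0.35, against -0.01, -0.001, 0.02 and 0.03 over the 8435 genes. All these values are for the main class cuts. The S phase genes moved in the same directions, at 0.866 [0.822, 0.912], 0.890 [0.849, 0.933], 1.098 [1.05, 1.15] and 1.13 [1.07, 1.19] in these 4 contrasts. The neutrophil, erythroid and B cell markers given above also differed between these libraries. Without cells holding more than 2 other-lineage UMIs, the ratios were 0.856, 0.921, 1.24 and 1.34.

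**Figure D5:**
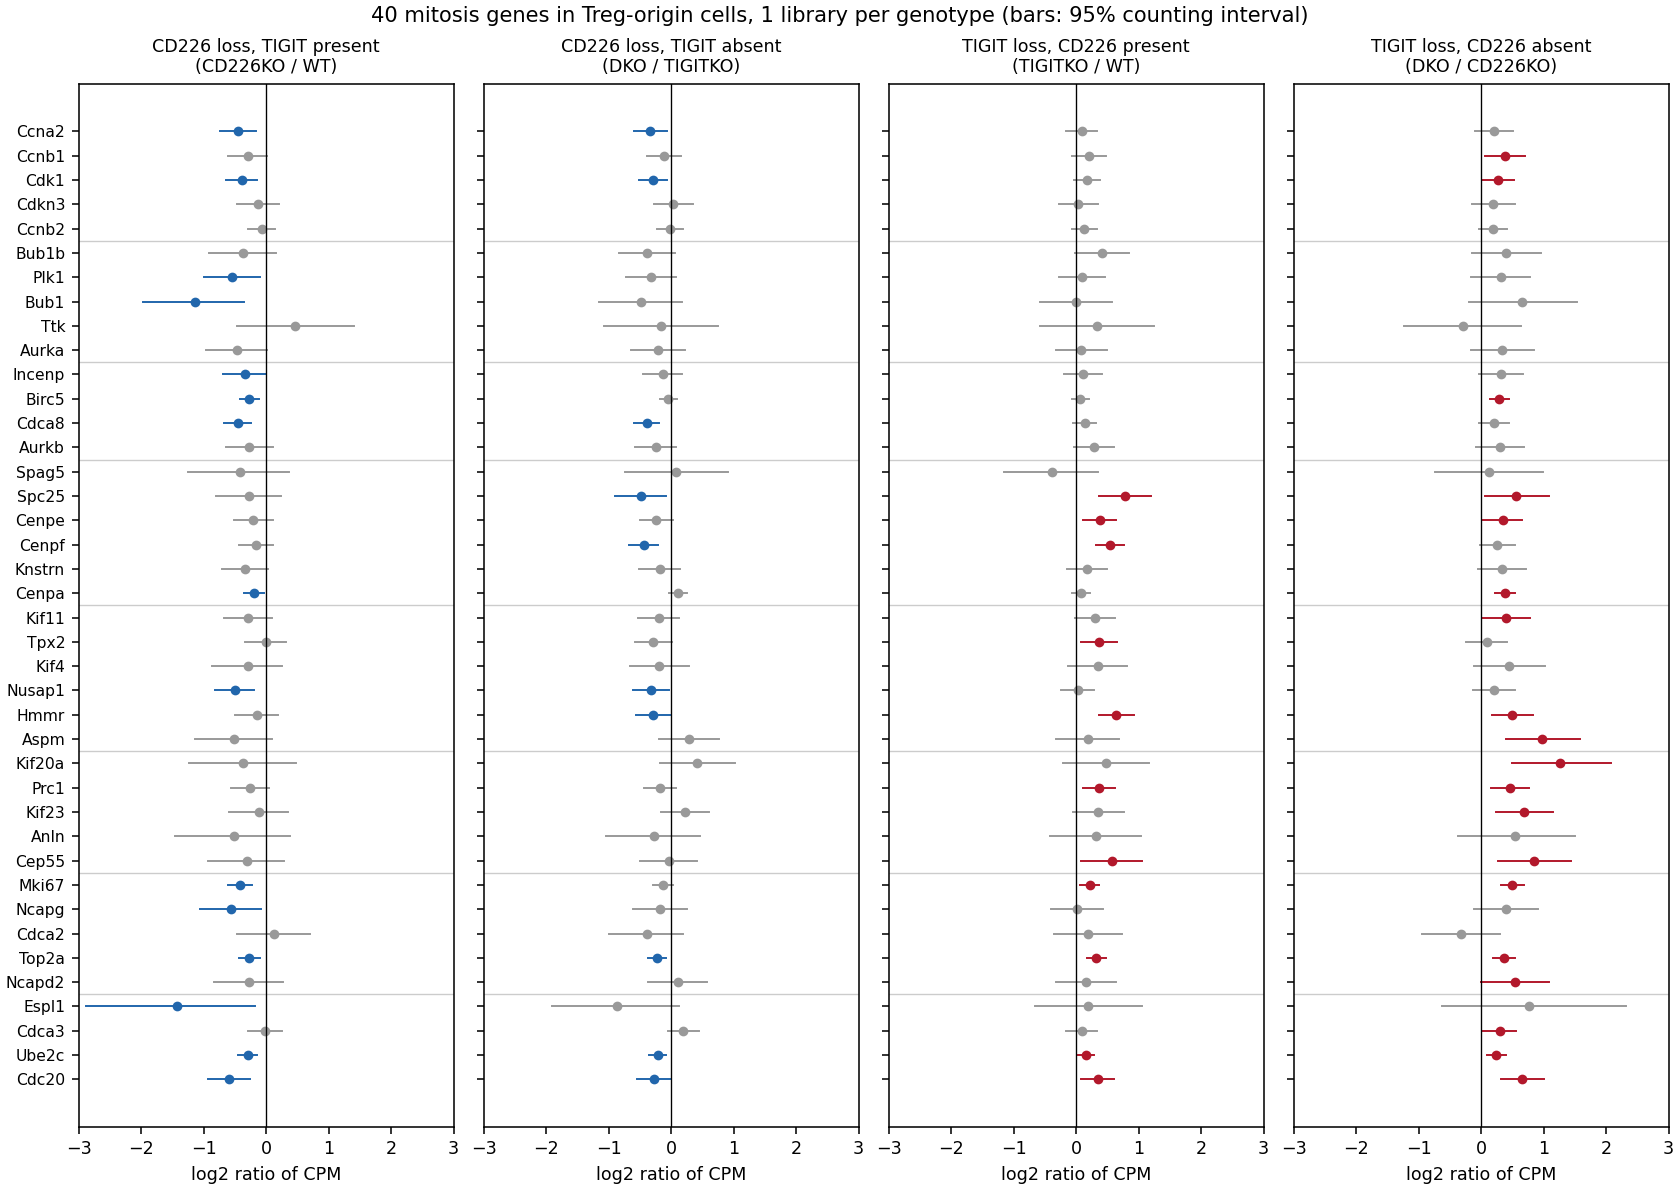
Log2 ratio of CPM (x axis) of each of the 40 genes in Treg-origin cells in 4 genotype contrasts, 1 library per genotype, with exact 95% binomial intervals as lines. Intervals wholly below 0 are blue and wholly above 0 are red. There are 15 and 10 blue and no red genes for CD226 loss, and 11 and 19 red and no blue genes for TIGIT loss, with the class cuts used in the main analysis. The intervals cover counting error only. The share of all genes with intervals wholly on 1 side of 0 was not computed.

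The lowest ratios under CD226 loss were those of Espl1 and Bub1. Bub1, the checkpoint kinase, was at 23.9, 10.9, 23.9 and 17.1 CPM in Treg-origin cells, a ratio of 0.456 [0.255, 0.780] for CD226KO over WT and 0.715 [0.451, 1.12] for DKO over TIGITKO. The same ratios for Espl1 were 0.369 [0.135, 0.879] and 0.550 [0.266, 1.09], from 25, 7, 26 and 14 UMIs. Cdc20, the activator of the anaphase-promoting complex, was at 98.4, 65.2, 125 and 103 CPM, with 0.663 [0.524, 0.833] for CD226KO over WT. Ttk, the checkpoint kinase Mps1, had the highest ratio there, at 1.38 [0.725, 2.64] from 22 and 21 UMIs, and the phosphatase-targeting gene Cdca2 was at 1.09 [0.723, 1.63] and Tpx2 at 0.995 [0.794, 1.24], so all 3 intervals held 1. With TIGIT absent Spc25, of the Ndc80 complex, followed Espl1 at 0.713 [0.539, 0.940], and the highest were Kif23 at 1.16 [0.891, 1.52], Aspm at 1.21 [0.871, 1.69] and Kif20a at 1.33 [0.878, 2.03].

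The highest ratios under TIGIT loss were those of Spc25, Hmmr and Cep55 with CD226 present, and of Kif20a, Aspm and Cep55 with CD226 absent. Kif20a, a kinesin of the central spindle, was at 14.7, 11.4, 20.5 and 27.3 CPM, with 2.39 [1.41, 4.201] for DKO over CD226KO. Cep55, which recruits the abscission machinery, was at 27.8, 22.3, 41.1 and 40.02 CPM, with 1.48 [1.06, 2.08] for TIGITKO over WT and 1.79 [1.21, 2.70] for DKO over CD226KO. Aspm gave 1.97 [1.31, 2.99] in the latter contrast. Hmmr, a microtubule-binding receptor for hyaluronan, was at 78.9, 71.0, 123 and 100.04 CPM, with 1.55 [1.28, 1.89] for TIGITKO over WT. Spc25 gave 1.71 [1.29, 2.28] in the same contrast, at 36.0, 29.8, 61.6 and 43.9 CPM. The lowest ratios, those of Spag5 at 0.762 [0.449, 1.28], Bub1 at 1.001 [0.669, 1.496] and Ncapg at 1.01 [0.759, 1.34] for TIGITKO over WT, and of Cdca2 at 0.798 [0.517, 1.23], Ttk at 0.814 [0.426, 1.55] and Tpx2 at 1.06 [0.848, 1.34] for DKO over CD226KO, all had intervals that held 1.

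In the wild-type conventional cells the sums moved less than in Treg-origin cells with the main class cuts. Conventional cells came from 1 pool per library, so their Treg companions and their pool cannot be told apart. The CD4 ratios were 0.963, 0.937, 1.001 and 0.974 in the order CD226KO over WT, DKO over TIGITKO, TIGITKO over WT and DKO over CD226KO. The CD8 ratios were 1.04, 0.961, 1.04 and 0.959 in the same order. With strict class cuts the CD226 contrasts were 0.968 and 0.933 in CD4 and 1.05 and 0.943 in CD8 cells, against 0.967 and 0.988 in Treg-origin cells. For the CD226 contrasts the order between the classes thus rests on the class cuts. The TIGIT contrasts were then 0.961 and 0.927 in CD4 and 1.04 and 0.934 in CD8 cells. In Treg-origin cells they were 0.862 and 0.882, still the furthest from 1 but turned below it. At most 1 of the 40 genes passed this limit in either class in any of these contrasts.

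Treg-origin cells with a Foxp3 UMI held more of these transcripts than those without one in all 4 libraries. Their summed levels were 4591, 4303, 6507 and 5546 CPM with a Foxp3 UMI (90, 88, 78 and 90 cells) and 3954, 3009, 4396 and 3835 CPM without (277, 244, 384 and 286 cells). Median depth was also higher with a Foxp3 UMI, at 6108, 5105, 4231 and 4808 UMIs against 5161, 4360, 3847 and 4537, and its part in the difference was not tested. High sums at equal depth were found in 12.5% [6.41, 21.3], 11.8% [5.79, 20.6], 28.2% [18.1, 40.1] and 13.3% [7.08, 22.1] of cells with a Foxp3 UMI and in 9.81% [6.51, 14.0], 6.96% [4.03, 11.1], 14.1% [10.5, 18.3] and 10.6% [7.16, 15.0] of those without. With a Foxp3 or Ikzf2 UMI the summed levels were 4402, 3619, 4854 and 4331 CPM, and with neither 3240, 2595, 4547 and 4150.5 CPM. High sums were found in 11.8%, 8.84%, 16.8% and 11.0% of the former and in 6.10%, 6.06%, 15.6% and 12.1% of the latter, so DKO went the other way.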

How the data were processed

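Per the submitters' processing notes, the reads were processed with Cell Ranger 3.1.0 on mm10, and the deposited matrices hold raw UMI counts of 31053 genes and 2 antibodies per cell barcode. Parameters of the authors' counting are not given in the sources used here.

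Barcodes were kept from 500 detected genes upwards, provided mitochondrial transcripts made up no more than 10% of UMIs (7654, 9045, 10383 and 9058). No doublet caller was run. Antibody counts for CD45.1 over CD45.2, as a log2 ratio with a pseudocount of 1, defined Treg-origin (below -0.6) and conventional cells (above 2.2). Conventional cells with more Cd4 than Cd8a and Cd8b1 UMIs were CD4, those with fewer CD8. Sums of UMIs over the cells of each class in each library were tested with edgeR 4.0.16 (R 4.3.3), with DESeq2 1.42.0 as an alternative. The fit was tested on simulated data. Intervals are exact, at 95%, and cover counting error only. Genotype ratios by gene used the genes that reached a mean of 5 CPM over the 4 libraries of the class. These were 8435 in Treg-origin, 8216 in CD4 and 8145 in CD8 cells.

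Genes named with values were the 2 with most UMIs in each role, the 3 highest and 3 lowest log2 folds of each tested comparison, and the 3 highest and 3 lowest ratios of each genotype contrast. Anln, Aurka, Psrc1, Cdc25b, Pttg1 and Tyms, and the regulators and inhibitors, were named outside this rule, after their values were seen. The members and lists were chosen with earlier results of these data known. Leaving out cells with other-lineage markers was chosen after seeing the data. Each pool counts as 1 sample, and whether recipients or donors were pooled is not given.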

Additional observations from a re-analysis of the deposited data

Results flagged for a closer look

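Several ratios lay on opposite sides of 1 in 2 genetic backgrounds. Each rests on 1 library per genotype, and the differences between backgrounds were not tested. The summed level in CD8 cells was 1.04 for CD226KO over WT and 0.961 for DKO over TIGITKO, and 1.04 for TIGITKO over WT and 0.959 for DKO over CD226KO. In CD4 cells it was 1.001 [0.995, 1.008] for TIGITKO over WT, an interval that held 1, and 0.974 for DKO over CD226KO.

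In Treg-origin cells the CD226 contrast, given first with TIGIT present and then with TIGIT absent, was 1.09 and 0.762 for Cdca2, 1.38 and 0.894 for Ttk, and 0.922 and 1.16 for Kif23. It was 0.699 and 1.21 for Aspm, and 0.776 and 1.33 for Kif20a. The TIGIT contrast, first with CD226 present and then with CD226 absent, was 0.762 and 1.09 for Spag5, 1.14 and 0.798 for Cdca2, and 1.26 and 0.814 for Ttk.

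Cells outside the compared classes also held these transcripts. CD45.1 cells with equal Cd4 and Cd8 counts were at 5896, 5466, 5943 and 5394 CPM in the WT, CD226KO, TIGITKO and DKO libraries. Cells with an intermediate antibody ratio were at 5165, 5633, 5749 and 4767 CPM.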

How the results depend on the processing

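In Treg-origin against CD4 cells, 37 to 40 of the 40 genes were called lower and 0 higher under every alternative run, leaving out each library included. In CD8 against CD4 cells the count called higher was 34 with thinned cells and 16 to 24 otherwise (19 to 24 without 1 library). The count called lower was 0 with DESeq2's Wald test, without the library block and with thinned cells, 3 with the strict cell filter and 2 with strict class cuts. CD8 over CD4 log2 folds changed sign in 7 named genes and the cause was not tested. With thinning they became 0.091 for Cenpa, 0.14 for Cenpf, 0.13 for Nusap1, 0.12 for Mki67 and 0.046 for Ube2c. With the strict cell filter Cdk1 became -0.023 and Prc1 -0.007, and with strict class cuts Cdk1 became -0.0099. Mki67 became 0.0051 with DESeq2 size factors and its Wald test, 0.003 with no filter on low counts and 0.0002 with no library block. Without 1 library, Cdk1 ranged from -0.0005 (without CD226KO) to 0.0595, Cenpf from -0.0585 to 0.0154 (above 0 without WT or TIGITKO), and Mki67 from -0.0232 to 0.0418 (above 0 without WT). The Treg-origin minus CD4 share of high cells was -20.3 points at a cut of 10 and -0.882 at 40. The CD8 minus CD4 share was -1.53 points with the strict cell filter, 11.9 at a cut of 10 and -1.2006 at 40. Ratios of the sum moved beyond their counting interval as follows. For CD226KO over WT in Treg-origin cells it was 0.765 with a strict cell filter, 0.967 with strict class cuts, 0.776 with Cd4-dominant cells and 0.856 with other-lineage cells left out. For DKO over TIGITKO in Treg-origin cells it was 0.989 with strict class cuts, 0.849 with Cd4-dominant cells and 0.83 with thinning. For TIGITKO over WT in Treg-origin cells it was 1.11 with a strict cell filter, 0.862 with strict class cuts, 1.12 with Cd4-dominant cells, 1.3 with thinning and 1.24 with other-lineage cells left out. For DKO over CD226KO in Treg-origin cells it was 0.881 with strict class cuts, 1.22 with Cd4-dominant cells, 1.31 with thinning and 1.34 with other-lineage cells left out. For DKO over WT in Treg-origin cells it was 0.978 with a strict cell filter, 0.852 with strict class cuts, 0.949 with Cd4-dominant cells, 1.08 with thinning and 1.14 with other-lineage cells left out. For CD226KO over WT in CD4 cells it was 0.947 with thinning and 0.952 with other-lineage cells left out. For DKO over TIGITKO in CD4 cells it was 0.949 with a strict cell filter and 0.917 with thinning. For TIGITKO over WT in CD4 cells it was 0.961 with strict class cuts and 1.02 with thinning. For DKO over CD226KO in CD4 cells it was 0.987 with a strict cell filter, 0.927 with strict class cuts, 0.988 with thinning and 0.982 with other-lineage cells left out. For DKO over WT in CD4 cells it was 0.947 with a strict cell filter and 0.897 with strict class cuts. For CD226KO over WT in CD8 cells it was 1.05 with strict class cuts, 0.995 with thinning and 1.05 with other-lineage cells left out. For DKO over TIGITKO in CD8 cells it was 0.972 with a strict cell filter, 0.943 with strict class cuts and 0.951 with other-lineage cells left out. For TIGITKO over WT in CD8 cells it was 1.01 with thinning. For DKO over CD226KO in CD8 cells it was 0.97 with a strict cell filter, 0.934 with strict class cuts, 0.98 with thinning and 0.941 with other-lineage cells left out. For DKO over WT in CD8 cells it was 1.0 with a strict cell filter, 0.98 with strict class cuts and 0.975 with thinning. Between genotypes, no paired analysis was possible because they share only replicate number 1. The class comparisons were paired within library, and their fit without the library block is given above. Low counts limit genes such as Espl1, with 7 to 26 UMIs in Treg-origin cells.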
